A study of Bos taurus with 8 samples.

Results

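The tiled locus described here lies on bovine chromosome 2, from position 54397587 to 54497410 on assembly Btau_3.1, and spans 99.8 kb. Its members are all non-control probes of the array whose start falls within those bounds, which gave 313 of 10249 probes, or 3.05% of the array. No measured value entered that choice. Probes are named by their start position; genes, exons and introns were not assigned to them, since no gene names accompany the probes and no annotation of this assembly was used here.

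The study measured DNA methylation in the arcuate nucleus of 8 heifers, with 1 array per animal and no pooling stated in the labels. High-gain heifers 1 to 4 were fed for a target gain of 1 kg per day, and low-gain heifers 5 to 8 for 0.5 kg per day. Both schedules began at 4.5 months of age, and tissue was taken at 8.5 months. From each animal, 3 µg of methyl-enriched DNA carried a red Alexa Fluor dye and 3 µg of total input DNA a green one. Every array had the same dye orientation, all 8 arrays sat on 1 slide, and no treatment other than the feeding schedule separated the groups in the labels. The samples hold genomic DNA of whole arcuate tissue, so they mix neurons, glia and other cells, and no cell type marker could be read from them.

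Cytosine methylation at CpG sites is the main methylation mark of mammalian DNA, and in the enrichment assay a methyl-CpG binding domain protein holds fragments that carry it while other fragments wash through. The captured share of a fragment depends on how many CpG sites it holds as well as on how many of them are methylated. The arcuate nucleus is a cell group at the base of the hypothalamus that senses metabolic hormones such as leptin and acts on feeding and on the reproductive axis.

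For each probe and array, the value given below is log2(enriched/input) minus the median of that quantity over all non-control probes of the array. A value of 0 therefore marks a probe at the middle of its array and says nothing on whether methylation is absent. Probe starts within the locus lay 148 to 1147 bp apart, with a median of 286 bp, and the nearest chromosome 2 probes outside it began at 46191039 and 83378741. Gaps of 1147 bp after the probe at 54405083 and of 1092 bp after the probe at 54425186 divided the locus into 3 regions of 25, 64 and 224 probes. Of the 97 tiled loci on the array, defined as 10 probes or more with no gap between starts above 20000 bp, 7 held more probes than this one.

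In their ratios, low-gain heifers 6, 7 and 8 resembled each other more than any other pair of animals did. Low-gain heifer 5 did not share this, over the locus or over the rest of the array. Across the probes, the ratios of low-gain heifers 6, 7 and 8 correlated with each other at 0.487 to 0.698, while the correlations of low-gain heifer 5 with these animals were between -0.099 and 0.089. Over the rest of the array the same correlations were 0.577 to 0.666 among heifers 6, 7 and 8 and 0.0988 to 0.143 for heifer 5 with them. Over the locus, high-gain heifers correlated with each other at -0.00083 to 0.28, and heifer 5 with high-gain heifers at 0.066 to 0.22. All 25 pairs other than those of heifers 6, 7 and 8 lay between -0.099 and 0.30. Over the rest of the array these 25 pairs lay between 0.0018 and 0.31. The single channels correlated more closely over all 28 pairs of animals, at 0.626 to 0.913 in the enriched channel and 0.777 to 0.920 in the input channel. The probes share their array, their probe affinities and the input that divides the ratio, so these values are descriptions. Results between the schedules are therefore also given without heifer 5.

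Averaged over its probes, the locus lay below the array median. The mean was 0.013, 0.11, -0.20 and -0.61 in high-gain heifers 1, 2, 3 and 4. It was -0.13, -0.67, -0.45 and -0.52 in low-gain heifers 5, 6, 7 and 8. Heifers 1 and 2 were just above the array median, the other 6 arrays were below it, and the groups overlapped because heifer 4 lay among the low-gain animals and heifer 5 among the high-gain animals. The mean of both group means was -0.31 ± 0.084 (SE, n = 8), past the threshold with limma over the 97 loci (adjusted p = 0.0177). Across the array 34% of the loci passed below 0 in the same test and 7.22% above it, and 14 loci had a lower mean than this one. The call was lost without high-gain heifer 3 (adjusted p = 0.0618), low-gain heifer 6 (0.0577) or low-gain heifer 8 (0.0502). It was also lost within slide row 1, where the mean was -0.17 (limma, adjusted p = 0.371). Within slide row 2 the mean was -0.45 and passed (limma, adjusted p = 0.00111). All other probes averaged -0.097 over high-gain and -0.12 over low-gain heifers, so a mean over probes lay below the array median there as well.

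Set against all other probes of the same array, the locus mean was lower by 0.20 ± 0.090 on the log2 scale (SE, n = 8). It was lower on 6 of 8 arrays, with differences between -0.50 and 0.11, and this did not pass the exact sign-flip test (two-sided p = 0.102, 0.118 adjusted over 7 measures). Other properties of the locus differed from the rest of the array on every animal. The SD over locus probes was higher on 8 of 8 arrays, by 0.17 on average. The share of probes that the scanner software called well above background was lower on 8 of 8 arrays, with mean differences of -8.25 percentage points in the enriched channel and -6.13 percentage points in the input channel. Surrogates, the small values that the software writes in place of a signal it cannot tell from background, took a share of probes higher by 4.25 percentage points, again on 8 of 8 arrays. Each of these 4 differences had an exact sign-flip p of 0.0078, the smallest that 8 arrays allow, and 0.0137 after adjustment. Other large loci came close to this one in SD and in the enriched share, as given below.

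The design compares the schedules, and the locus mean did not pass the test for a difference between them. It averaged -0.17 ± 0.32 (SD) over the 4 high-gain heifers and -0.44 ± 0.23 (SD) over the 4 low-gain heifers. High-gain minus low-gain was 0.27 ± 0.17 (SE), with adjusted p = 0.440 in limma over the 97 loci and exact permutation p = 0.257 (two-sided, 0.411 adjusted over 8 measures; 4 against 4 allows no p below 0.0286). No locus of the array passed (0%), and 7 loci had a higher difference than this one. Within slide row 1, which held heifers 1, 2, 5 and 6, the difference was 0.46. Within slide row 2, which held heifers 3, 4, 7 and 8, it was 0.08. Without heifer 5 the difference was 0.37 (adjusted p = 0.199), without heifer 4 it was 0.42 (0.0918), and without heifer 2 it was 0.18 (0.799).

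The single channels were read as log2 signal minus the channel's median on that array. The enriched channel of the locus averaged 0.11 ± 0.095 (SD) over high-gain and -0.11 ± 0.21 (SD) over low-gain heifers, a difference of 0.22 that did not pass (limma, adjusted p = 0.510). For the input channel the means were -0.0016 ± 0.15 over high-gain and 0.045 ± 0.12 over low-gain heifers, a difference of -0.05 (limma, adjusted p = 0.964). In the enriched channel, 219, 220, 189 and 204 of the 313 probes were well above background in heifers 1 to 4, against 198, 168, 189 and 117 in heifers 5 to 8. Heifer 8 had the fewest and heifers 1 and 2 the most, and heifers 3 and 7 had the same number. The share was 66.5% ± 4.67 over high-gain and 53.7% ± 11.6 over low-gain heifers (SD), a difference of 12.8 percentage points (exact permutation p = 0.0857, 0.305 adjusted). Over the rest of the array these shares averaged 74.1% for high-gain and 62.6% for low-gain heifers, a gap of 11.5 percentage points. The groups did not overlap there, with the lowest high-gain share at 71.1% and the highest low-gain share at 68.5%. The exact permutation p of that gap was 0.0286 without adjustment, the smallest that 4 against 4 allows. Surrogates stood in either channel at 30, 35, 42 and 26 probes in high-gain heifers and at 45, 43, 38 and 70 probes in low-gain heifers (exact permutation p = 0.0571, 0.305 adjusted). Over the rest of the array surrogates took 7.04% of probes for high-gain and 10.74% for low-gain heifers, also with an exact permutation p of 0.0571. The part that these shares have in the ratio differences was not tested.

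Along the locus, windows of 10000 bp with at least 5 probes gave 11 means per array. The mean of both groups was below 0 in 11 of 11 windows, where 58.7% of the 652 windows of the array were. With limma over all windows, 5 of the 11 passed below 0, against 19.3% of all windows, and none passed above it, against 3.68%. The 5 began at 54410057, 54420443, 54440355, 54460132 and 54470133, with means of -0.35, -0.39, -0.35, -0.40 and -0.40 (adjusted p from 0.0143 to 0.0426). The number of windows that passed moved between 0 and 7 when 1 heifer was left out; it was 1 without heifer 3 or 4, 2 without heifer 7, and 0 without heifer 6 or 8. The first window, from 54397587, was nearest to the array median at -0.11.

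High-gain minus low-gain was above 0 in 11 of 11 windows, against 48.6% over the array. The window means over high-gain heifers, from the first to the last, were -0.08, -0.15, -0.17, -0.24, -0.17, -0.33, -0.08, -0.12, -0.26, -0.09 and -0.19. Over low-gain heifers they were -0.14, -0.22, -0.54, -0.53, -0.27, -0.37, -0.42, -0.69, -0.53, -0.59 and -0.27. The high-gain means thus lay between -0.33 and -0.08, and the low-gain profile was lowest in the eighth window. In the same order the differences were 0.07, 0.07, 0.37, 0.29, 0.11, 0.03, 0.34, 0.57, 0.27, 0.50 and 0.08. No window passed after adjustment (0% over the array). One was higher at an unadjusted p under 0.05, where 6.6% of all windows were, and 0 were lower, where 6.29% were. Neighbouring windows share the same 8 arrays, and heifer 5 was the highest low-gain animal in 7 windows and heifer 4 the lowest high-gain animal in 9. Within slide row 2, 7 of the 11 differences were above 0.

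The window from 54460132 to 54469965, with 32 probes, had the largest difference of the 11. Its means were -0.13, 0.01, -0.09 and -0.25 in high-gain heifers 1 to 4. In low-gain heifers 5 to 8 they were -0.24, -1.004, -0.76 and -0.77. The high-gain animals lay close together, and heifer 5 lay just inside their range while the other 3 low-gain animals were well below it. The difference was 0.57 ± 0.21 (SE; limma, unadjusted p = 0.0145, adjusted p = 0.292), and the values within slide rows 1 and 2 were 0.56 and 0.59. Without heifer 5 it was 0.73 (adjusted p = 0.0508).

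In the next-to-last window, from 54480226, high-gain heifers 1, 2 and 3 stood at 0.29, 0.40 and 0.03 and heifer 4 at -1.06. Low-gain heifers 5 to 8 stood at -0.04, -0.83, -0.68 and -0.79. Heifer 4 was thus the lowest of all 8 animals there, and the difference of 0.50 ± 0.29 (SE) had an adjusted p of 0.425. The 3 regions set by the probe gaps ran from 54397587 to 54405128, from 54406230 to 54425246 and from 54426278 to 54497410. Their means were -0.14, -0.18 and -0.17 over high-gain heifers and -0.19, -0.47 and -0.46 over low-gain heifers. The differences were 0.05 ± 0.24, 0.29 ± 0.23 and 0.29 ± 0.25 (SE; limma, adjusted p from 0.569 to 0.950), and none had an unadjusted p under 0.05; over the array 6.25% of 960 regions were higher and 8.23% lower at that level.

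Single probes varied far more than windows. The difference between the groups ran from -2.16 to 3.13 over the 313 probes, with a median of 0.13, while the median over all probes of the array was -0.13. It was above 0 at 180 probes, or 57.5%, against 44.7% over the array. No probe of the locus passed after adjustment over 10249 probes, and none did on the whole array (0%); the smallest adjusted p in the locus was 0.262. At an unadjusted p under 0.05 in limma, 38 probes were higher in high-gain heifers and 12 were lower. The higher ones were 12.1% of the locus, against 7.21% over the array, and the lower ones 3.83%, against 5.23%. The groups did not overlap at 10 probes in the higher direction, or 3.21% of the 312 with a value on every array, against 2.67% over the array. In the lower direction it was 8 probes, or 2.56%, against 4.2%. The count of higher probes was 53 without heifer 5, 25 without heifer 2 or 6, and 20 without heifer 8. The count of lower probes was 21 without heifer 5 and 6 without heifer 4 or 8. No share over the array stands beside these left-out counts, so they only show how far the calls moved.

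The 38 higher probes had a median difference of 2.16, with a median of 1.72 in the enriched channel and -0.40 in the input channel. At 36 of the 38, the enriched channel differed by more than the input channel did. At 25 of them, both channels were well above background on all 8 arrays. The 12 lower probes had a median difference of -1.67, with -0.73 in the enriched channel and 1.08 in the input channel, and the enriched channel differed by more at 5 of the 12. Both channels were well above background on all arrays at only 3 of these 12.

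By moderated t, the probe at 54450193 to 54450250 (A_63_P10343222) came first among the higher ones. It read 1.17, 1.07, 1.26 and 0.04 in high-gain heifers 1 to 4, against -0.12, -2.98, -2.14 and -3.73 in low-gain heifers 5 to 8. The groups did not overlap, though heifers 4 and 5 were only a little apart. Both channels were well above background on all 8 arrays, and the difference was 3.13 ± 0.74 (SE; limma, adjusted p = 0.262), with differences of 2.62 in the enriched channel and -0.51 in the input channel. It was 2.67 in slide row 1 and 3.58 in slide row 2.

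The next was the probe at 54458522, which stood at -0.25, 0.20, 0.08 and 0.26 in high-gain heifers. The low-gain heifers had -0.88, -2.80, -1.80 and -3.20 there, all below every high-gain animal. The difference was 2.24 ± 0.55 (SE; limma, adjusted p = 0.262). At 54464480, high-gain values of -0.02, 0.07, 1.92 and 0.58 stood against low-gain values of -1.14, -2.07, -1.26 and -1.35, where heifer 5 was close to the other low-gain animals. At 54470864 the values were 1.08, 0.81, 0.43 and -0.25 in high-gain heifers and -0.32, -2.34, -1.55 and -2.62 in low-gain heifers. At 54482607 they were -1.22, 0.41, -0.73 and -0.31 in high-gain heifers and -1.58, -3.36, -2.17 and -3.67 in low-gain heifers. At 54459342 they were -0.08, 0.03, -0.80 and 1.14 in high-gain heifers and -0.46, -4.07, -3.18 and -3.42 in low-gain heifers. The last of these was the only one of the 6 whose groups overlapped, through heifers 3 and 5, and the 6 differences ran from 2.09 to 3.13. In low-gain heifers the enriched channel was well above background on 3 of 4 arrays at 54464480. It was so on only 2 of 4 low-gain arrays at 54470864 and at 54482607. At 54470864 it held a surrogate on 1 low-gain array, so the ratio there is no measured level.

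Among the lower probes, the one at 54479527 came first. It read -0.63, -3.18, -0.44 and -0.77 in high-gain heifers and 0.39, 0.93, 0.60 and 1.62 in low-gain heifers, a difference of -2.14 ± 0.65 (SE; limma, adjusted p = 0.307). The input channel differed by 1.60 there and the enriched channel by -0.55. The enriched channel was well above background on 1 of 8 arrays and held a surrogate on 1 high-gain and 1 low-gain array. The input channel was well above background on 3 high-gain and 0 low-gain arrays, so the difference is given as computed and is no measured size. The probe at 54414574 was the only one of the 6 with both channels well above background on all arrays. Its values were 0.01, -1.42, 0.33 and -0.72 in high-gain heifers and 0.36, 2.52, 1.08 and 0.89 in low-gain heifers, a difference of -1.66 ± 0.59 (SE; limma, adjusted p = 0.336). Heifers 3 and 5 were nearly level there. The other 4, at 54495540, 54433158, 54495704 and 54453490, had an enriched channel below that mark on all 8 arrays. Surrogates stood at all of them but 54433158, so their ratios are not measured levels and no size of difference is given.

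One run of neighbouring probes met the rule of at least 3 probes with starts within 1000 bp, each at an unadjusted p under 0.05 with the same sign. It held 4 probes between 54458522 and 54459402 and was 1 of 13 runs on the array. Since the values chose it, it is described without a test. Its mean was -0.26, -0.03, -0.45 and -0.99 in high-gain heifers 1 to 4, and -0.99, -3.83, -2.45 and -3.49 in low-gain heifers 5 to 8. Heifers 4 and 5 had nearly the same value, and heifers 6, 7 and 8 lay far below all others. The group means were -0.43 ± 0.41 for high-gain and -2.69 ± 1.28 for low-gain heifers (SD over 4 animals), a difference of 2.26.

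The enriched channel of the run stood above its array median by 3.24, 4.04, 4.18 and 3.099 in high-gain heifers and by 3.37, 0.71, 1.62 and 1.41 in low-gain heifers. In the input channel it stood above by 3.39, 3.90, 4.21 and 3.67 in high-gain heifers and by 4.18, 4.13, 3.92 and 4.50 in low-gain heifers. The animals thus differed mainly in the enriched channel, by 1.86 between the groups, with -0.39 in the input channel. All 16 spots of high-gain and all 16 of low-gain heifers were well above background in both channels. The difference was 2.27 in slide row 1, 2.25 in slide row 2 and 2.83 without heifer 5.

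The probes on either side of the run did not all share its direction. As computed, the probe at 54458144 before it had a difference of 0.0076, and the probe at 54459525 after it had -1.84, where the input channel differed by 1.68. At 54458144 the enriched channel held a surrogate on 1 high-gain and 1 low-gain array. At 54459525 it was well above background on no array and held a surrogate on 1 low-gain array. The input channel there was well above background on 3 high-gain and 0 low-gain arrays. Neither difference is thus a measured size. Farther upstream, the probe at 54457130 had a difference of 2.69 with a mean input level of 3.62 above the array median. The run was absent after loess, after scaling, under both filters on dim probes, within either slide row, and when heifer 1, 2, 3, 6 or 7 was left out.

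The difference between the groups moved with the level of the input channel. Probes of the locus were divided by their mean input level over the 8 arrays into a dim group of 105, a middle group of 104 and a bright group of 104, a division added after seeing the values. The bright group averaged 0.06, 0.16, -0.34 and -0.49 in high-gain heifers and -0.02, -1.30, -1.21 and -1.89 in low-gain heifers. In the dim group the values were 0.07, 0.19, 0.10 and -0.62 in high-gain heifers and -0.17, 0.24, 0.58 and 0.99 in low-gain heifers. Bright minus dim was -0.01, -0.03, -0.44 and 0.13 in high-gain heifers and 0.15, -1.54, -1.79 and -2.88 in low-gain heifers. Heifers 6, 7 and 8 thus went downward with input level by more than any other animal, and heifer 5 did not.

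High-gain minus low-gain was -0.48 in the dim group, 0.35 in the middle group and 0.95 in the bright group. With the same bounds, the rest of the array had -0.50, 0.02 and 0.57. The bright group held 29 of the 38 higher and 1 of the 12 lower probes, and the dim group 1 of the higher and 9 of the lower. Called probes were not counted by input level over the rest of the array, where the differences rose with input level too. The counts are therefore not read as particular to the locus. Bright minus dim averaged -0.09 ± 0.25 for high-gain and -1.51 ± 1.25 for low-gain heifers (SD over 4 animals; exact permutation p = 0.143, 0.267 adjusted over 4 comparisons). Over the rest of the array bright minus dim averaged -0.0056 ± 0.24 in high-gain heifers and -1.08 ± 0.79 in low-gain heifers (exact permutation p = 0.0571, 0.229 adjusted). Across locus probes the correlation of the ratio with the mean input level was between -0.08 and 0.07 in heifers 1 to 5, and -0.34, -0.53 and -0.65 in heifers 6, 7 and 8. The input signal is also the denominator of the ratio, so the correlation describes these arrays and has no test. After loess within arrays, which fits the array-wide trend of the ratio with mean signal, the 3 differences were -0.001, 0.35 and 0.41. Over the rest of the array they were then -0.08, -0.04 and 0.03. Bright minus dim over the locus after loess was -0.16, -0.08, -0.59 and -0.72 in high-gain heifers. In low-gain heifers it was 0.05, -1.06, -0.77 and -1.42 (exact permutation p = 0.286, also 0.286 adjusted). A fall with input level thus remained in part of the animals.

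Low-gain heifer 5 was singled out by its ratios over the locus, which did not follow those of heifers 6, 7 and 8. Since the same values chose the animal, the counts below are a description and no independent support for a difference. Without heifer 5, 16 probes of the locus passed limma after adjustment, all of them higher in high-gain heifers. That was 5.11% of the locus, while 3.01% of the array passed without that animal, 2.61% as higher and 0.39% as lower. Their differences ran from 2.42 to 3.89, and heifer 5 itself lay inside the high-gain range at 9 of the 16. The median of their mean input levels was 3.32 above the array median, and the bright input group of the locus began at 1.21. The part that input level has in these calls was not tested. When any other heifer was left out, 0 probes passed. The labels give no reason to set heifer 5 apart, and the results above keep it.

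For the level of the locus itself, 16 probes lay below the array median and 5 above it at an adjusted p under 0.05 in limma. These were 5.11% below, against 4.23% over the array, and 1.6% above, against 1.31%. The count below was 50 without heifer 5 and between 2 and 6 when heifer 1, 3, 4, 6, 7 or 8 was left out. The count above was 13 without heifer 5, 3 without heifer 2 and 0 without any 1 of the others. No share over the array stands beside these left-out counts, so they show how far the calls moved and are no result about the locus. The lowest was the probe at 54418601 to 54418649. It stood at -2.15, -2.10, -3.41 and -2.50 in high-gain heifers and at -2.21, -2.81, -3.03 and -2.61 in low-gain heifers. All 8 arrays were far below the median and the groups overlapped, with a mean of -2.60 and an adjusted p of 0.000322. Its input channel was well above background on 8 of 8 arrays and its enriched channel on 3 high-gain and 1 low-gain arrays.

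The next lowest were at 54458815, 54470133, 54447801 and 54483999, with means of -2.51, -2.08, -2.08 and -2.04 as computed (limma, adjusted p from 0.0204 to 0.0348). The probe at 54458815 is a member of the run. At 54470133 the enriched channel held a surrogate on 2 high-gain and all 4 low-gain arrays, so its mean is no measured level. At 54483999 the enriched channel held a surrogate on 1 low-gain array, so that mean is no measured level either. It was well above background there on 3 high-gain and 1 low-gain arrays. Over the alternative settings run, leaving out 1 heifer included, the call at 54458815 was lost in 5 of 19, that at 54470133 in 9 of 17, that at 54447801 in 9 of 18 and that at 54483999 in 11 of 18. The call at the lowest probe, 54418601, was lost in 2 of 18, both of them fits within 1 slide row. Of the 16 probes below, 13 fell in the bright input group. All 5 probes above fell in the dim group. Such calls were not counted by input level over the rest of the array, so this is not read as particular to the locus.

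At the upper end, the 5 highest means were at 54446758, 54451932, 54483531, 54404082 and 54425186. At the first 3 the enriched channel was well above background on 0, 1 and 1 of 8 arrays and the input channel on 1 each, so their means are not measured levels and are not given. The mean at 54404082 was 1.13 (limma, adjusted p = 0.0497), and none of the other 4 passed the test. Its values were 0.31, 0.80, 0.34 and 0.89 in high-gain heifers and 0.77, 0.999, 1.79 and 3.17 in low-gain heifers, above the array median on every array, with both channels well above background on all 8. This call was lost in 14 of 19 alternatives, with adjusted p from 0.0239 to 0.572. The probe at 54425186 lay on the bright end of the array, with a mean input level of 9.31 and a mean enriched level of 10.71 above the channel medians. It stood at 0.45, -0.0034, -0.03 and 1.22 in high-gain heifers and 0.53, 2.32, 2.84 and 1.54 in low-gain heifers. Its mean of 1.11 (limma, adjusted p = 0.0548) turned to -0.36 after loess.

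Neighbouring probes shared little of their ratio. At starts up to 250 bp apart, the correlation between the 2 probes of a pair ran from -0.06 to 0.28 over the 8 arrays (123 pairs of probes), with the highest in low-gain heifer 7. Beyond 1000 and up to 2000 bp it ran from -0.05 to 0.03 (954 pairs). In the enriched channel, 102 probes were well above background on all 8 arrays and 52 on none, and 101 were in both channels on all 8.

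The array holds probes of 45 to 60 bp, and 61.0% of the locus probes had the full 60 bp, against 34.8% of the others. The 191 full-length probes of the locus averaged -0.34, and the 3455 full-length probes elsewhere averaged -0.35. In this class the locus minus the rest was 0.015 ± 0.099 (SD, n = 8) and below 0 on 4 of 8 arrays (exact sign-flip p = 0.680, also 0.680 adjusted). The 122 shorter probes averaged -0.26 in the locus and 0.023 elsewhere. That difference of -0.28 ± 0.30 (SD, n = 8) was below 0 on 6 of 8 arrays (exact sign-flip p = 0.0547, 0.109 adjusted over 4 comparisons). The split by length was added after seeing the values.

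Of the 15 tiled loci with at least 200 probes, this one had the highest SD over probes, the lowest share of probes well above background in the enriched channel (60.1%), the fifth lowest mean and the second highest difference between the schedules. The next highest SD was 1.38, at the chromosome 5 locus from 51726181, against 1.41 here. The next lowest share was 61.6%, at the chromosome 20 locus from 33893946. The mean of the chromosome 2 locus was 1 of 8, among the 15, that passed below the array median. Its difference was 1 of 11 that were above 0. Across these 15 loci the share of full-length probes correlated with the locus mean at -0.95 and with the difference between the schedules at 0.78. Over all 97 loci the values were -0.76 and 0.70. The loci share the same 8 arrays and their signal levels, so these correlations describe the arrays and carry no test.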

How the data were processed

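The deposited intensity values are processed signals, background-subtracted and dye-normalised by Agilent's software (Feature Extraction 10.7.1.1 with protocol ChIP_107_Sep09), per the file headers. Probe positions follow Btau_3.1, per the file headers. The authors' table of log2 ratios was the ratio of median signals after background subtraction (tolerance 0.0001, at every spot with both signals positive). It was not centred, and served as an alternative after centring on each array's median.

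The processed signals gave log2(enriched/input) at 10249 non-control probes. Outlier flags removed 28 spots, 1 of them in the locus (heifer 4). Each array was centred on its median, so a shift shared by all probes is removed. limma 3.58.1 in R 4.3.3 (lmFit, eBayes, two-sided, Benjamini-Hochberg at 0.05) was fitted across the whole array per probe, region, window and tiled locus. Loci and windows of unequal probe number shared 1 estimate of spread. Regions had 3 probes or more with no gap above 1000 bp between starts. Single values per array had exact permutation tests. Adjusted p-values are from limma unless another test is named. The number of arrays limits the precision, and each p-value measures the spread between animals and arrays together.

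The members were set by position alone. They, the lists and the tests were chosen with earlier results of these data known. The text names every region, window and run, the 6 probes highest and lowest by moderated t, and the 5 highest and lowest in the mean. Scripts were tested on simulated data. Alternatives covered background correction (normexp, offset 50, on median signals), loess, scaling, filters on dim probes, the authors' values, slide row and column, and leaving out each heifer. Slide column 1 held only high-gain heifers 1 and 3, and column 3 only low-gain heifers 5 and 8. With column as a block, the schedules are thus compared only within column 2 (heifers 2 and 7) and column 4 (heifers 4 and 6). Leaving out spots with a surrogate was added after seeing the data. Of the fold bounds for probes not well above background in 1 group, 9 were above 1, none at a named probe.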

Additional observations from a re-analysis of the deposited data

Results flagged for a closer look

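Of 90 sets of 4 values tested for 1 animal far from its group, 6 had such an animal. Chance alone gives about 1 in 20 in independent sets. These sets share animals and spots, and some of the probes were picked by their values, so that rate is only a rough guide. Low-gain heifer 5 stood apart in the mean of the enriched channel over the locus, at 0.21 against -0.18 in the nearest low-gain animal. In the window from 54400269, high-gain heifer 4 stood at -0.62, with its nearest group member at -0.03. In the window from 54440355, low-gain heifer 8 stood at -0.72, with its nearest group member at -0.26. At the probe at 54450193, high-gain heifer 4 read 0.0437 and the nearest high-gain animal 1.07. At the probe at 54479527, high-gain heifer 2 read -3.18 and the nearest high-gain animal -0.77. At the probe at 54458815, a member of the run, high-gain heifer 4 read -3.72 and the nearest high-gain animal -0.80.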

How the results depend on the processing

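The locus difference between the schedules stayed above 0 and short of the threshold under every alternative run, between 0.08 (within slide row 2) and 0.64 (both channels well above background), with the lowest adjusted p at 0.0819 (normexp). The locus mean against the array median was -0.17 within slide row 1 (adjusted p = 0.371) and -0.45 within slide row 2 (0.00111). It was -0.36 to -0.23 with 1 heifer left out. The probes passing between the schedules numbered 0 to 16 with 1 heifer left out. No paired analysis was possible because the schedules share no heifer numbers. Slide row as a block moved no call between the schedules. The cause of the changes below was not tested.

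The higher probes (38) became 22 with both channels bright, 25 within row 1 and 14 at p under 0.01, and 20 to 53 with 1 heifer left out. The lower probes (12) became 5 with loess, 4 with either filter, 5 within row 1, 20 within row 2 and 1 at p under 0.01, and 6 to 21 with 1 heifer left out. The probes below the array median (16) became 43 with normexp, 10 with both channels bright, 7 with the authors' values, 7 without surrogates, 0 within either row and 2 with column as a block, and 2 to 50 with 1 heifer left out. The probes above it (5) became 23 with normexp, 2 with loess, 2 with the input filter, 1 with both channels bright, 0 with the authors' values, without surrogates, within either row and with column as a block, and 0 to 13 with 1 heifer left out. Fits within 1 row hold 2 animals per schedule. The counts under alternatives in this section have no share over the array beside them, so they show only how far the calls moved.

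The windows at an unadjusted p under 0.05 (1) became 4 with normexp, 5 with both channels bright, 2 with the input filter, the authors' values, no surrogates, row 1, column as a block or windows of 5000 bp, 0 within row 2 or with windows of 20000 bp, and 0 to 3 with 1 heifer left out. The windows with a difference above 0 were 7 within row 2, 6 of 6 at 20000 bp and 19 of 21 at 5000 bp, and 9 to 11 with 1 heifer left out. The regions at that p (0) became 2 with normexp, 1 with both channels bright and 1 with gaps of at most 500 bp.

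The SD difference of -0.24 turned to 0.30 after scaling and 0.061 within row 2. The input difference turned to 0.080 within row 2 and 0.017 with column as a block. The window from 54397587 turned to -0.0797 (normexp), -0.0748 (scaling), -0.57 (input filter), -1.04 (both channels bright), -0.24 (authors' values), -0.15 (no surrogates) and -0.26 (row 1). The window from 54400269 turned to -0.0202 (loess), -0.0253 (input filter), -0.00571 (no surrogates), -0.11 (row 2) and -0.16 (column). Within row 2 the windows from 54420443, 54440355 and 54490160 turned to -0.0491, -0.20 and -0.25, the window from 54440355 was -0.19 with column as a block, and the window from 54430110 was -0.00922 after scaling. The region from 54397587 turned to -0.21 (input filter), -0.16 (both channels bright), -0.00463 (no surrogates), -0.13 (row 2) and -0.0766 (column). With 1 heifer left out, the windows from 54397587, 54430110, 54440355 and 54490160 ranged from -0.0577 to 0.26, -0.0397 to 0.28, -0.0925 to 0.22 and -0.12 to 0.36, and the region from 54397587 from -0.0408 to 0.22. The probe at 54425186 turned to -0.36 with loess.

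Signal over background limits the locus, since 101 of its 313 probes were well above it in both channels on all arrays. Scaling and the authors' values were not run for the single channels. The share of probes well above background was not run with column as a block.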
